A study of Mus musculus with 10 samples.

Results

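Matrix metalloproteinases and their tissue inhibitors were measured by RNA sequencing in whole back skin of mice colonised from early life with a pathogenic or a commensal staphylococcus. The 9 genes are 6 metalloproteinases (Mmp2, Mmp3, Mmp8, Mmp9, Mmp13 and Mmp14) and 3 inhibitors (Timp1, Timp2 and Timp3), chosen by symbol out of 46078 genes in the count table. Each symbol matched 1 gene, and all 9 were among the 16909 genes with enough reads to be tested. The SA group of 5 libraries came from C57BL/6 mice given Staphylococcus aureus SF8300, and the SE group of 5 from C57BL/6 mice given Staphylococcus epidermidis Tü3298. All were specific-pathogen-free newborns, painted with 100 µl of suspension every other day from day 3 to day 19 of life. An 8 mm punch of lightly defatted back skin was taken at day 21. No uncolonised skin was analysed here, so every difference is between the 2 bacteria. Whether the 5 libraries of a group stem from 5 mice, and whether those shared a litter, is not stated, so each p-value reflects only how these libraries varied. Each group held libraries with the male and with the female pattern of sex-linked genes, and so RNA of more than 1 animal.

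Metalloproteinases are zinc-dependent proteases that cut collagens, laminins, elastin and other proteins of the extracellular matrix, and most are secreted as inactive proenzymes whose propeptide must be removed. Tissue inhibitors bind the active site of the mature enzyme. In skin the family is known from wound repair, in which keratinocytes, fibroblasts and infiltrating leukocytes each supply members, and from the remodelling of the dermis around growing hair follicles. Transcript levels do not show how much active enzyme was present.

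Libraries held 21140654 to 25417851 reads on genes. Levels are given as CPM, the usual unit of counts scaled to library size, here after normalisation between libraries. Keratinocyte and fibroblast genes were abundant in all libraries, as in skin, and skeletal muscle genes were abundant too, at 10850 to 21460 CPM for 6 genes together. On the first principal component of all tested genes, SE libraries 3, 4 and 5 scored 39.9 to 56.7 and the remaining 7 libraries -35.1 to -9.4. They also held 432.8 to 2759 CPM of the 10 measured hair growth genes (keratins and trichohyalin of the inner root sheath and shaft, and the regulators Msx2, Hoxc13 and Shh), against 33.5 to 103.6 CPM in the others. By SE mean, Tchh (344.8 CPM), Krt71 (199.3) and Krt27 (116.9) made the largest parts of this sum. Shh, at an SE mean of 0.802 CPM, went the other way (log2 fold change, SA minus SE, 0.59 ± 0.608, standard error). The 6 proliferation genes summed to 193.0 to 226.3 CPM in these 3 libraries and to 336.1 to 515.6 CPM in the others. Hair growth is the name of the list, and whether follicles were growing was not tested. The fold changes of the members, and of the other genes named from the lists below, are given again without SE libraries 3, 4 and 5. In bulk skin, fewer cells of a type and less RNA per cell cannot be told apart.

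The control regions of a few members are shown first, because this family is known for promoters with a binding site for AP-1, the Fos and Jun dimer, close to a TATA box. Sequences were found for 7 of the 9 genes in the RefSeq table for GRCm38.p6, and the 250 bases before the RefSeq transcription start of 3 of them are given 5′ to 3′. Capitals mark 3 patterns, searched on both strands. The AP-1 pattern was TGANTCA, which reads the same on either strand. The pattern for ETS factors was AGGAAG and the TATA box pattern was taken as TATAAA, each with its reverse complement, and no 2 matches overlapped. Mmp3 lies at chr9:7445572-7445821 and Mmp13 at chr9:7272264-7272513, both on the plus strand. Timp1 lies at chrX:20869916-20870165, also on the plus strand.
Mmp3: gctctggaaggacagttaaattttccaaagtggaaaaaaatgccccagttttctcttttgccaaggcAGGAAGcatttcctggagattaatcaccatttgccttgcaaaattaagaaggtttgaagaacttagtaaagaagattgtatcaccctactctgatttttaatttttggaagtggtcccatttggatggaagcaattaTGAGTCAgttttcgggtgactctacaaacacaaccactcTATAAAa
Mmp13: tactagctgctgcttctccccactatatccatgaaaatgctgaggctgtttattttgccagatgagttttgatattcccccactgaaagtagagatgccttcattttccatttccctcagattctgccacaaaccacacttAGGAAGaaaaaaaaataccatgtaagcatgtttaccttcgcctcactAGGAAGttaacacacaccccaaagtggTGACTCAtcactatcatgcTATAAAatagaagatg
Timp1: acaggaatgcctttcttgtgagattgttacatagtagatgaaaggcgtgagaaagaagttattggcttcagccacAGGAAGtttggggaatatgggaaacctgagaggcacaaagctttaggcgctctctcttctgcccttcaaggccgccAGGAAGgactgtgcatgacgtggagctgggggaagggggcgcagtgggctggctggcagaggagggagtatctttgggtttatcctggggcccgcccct
Among all 32851 promoter windows of this length in the table, 6.75% held the AP-1 pattern, 29.5% the ETS pattern and 12.4% the TATA pattern. Mmp3 and Mmp13 held 1 AP-1 pattern each, starting 46 and 35 bases before the start, followed by a TATA pattern 7 and 16 bases before it. Of the 7 members with a sequence, only these 2 held either pattern in this window. Mmp2 and Mmp9 had no sequence there, so their promoters were not searched. GC content was 37.6% in Mmp3 and 40.4% in Mmp13, under the median of 52.4% over all windows, and 65.6% in Timp3 and 68.0% in Timp2. In the GENCODE annotation the gene starts upstream of the RefSeq start for these last 2, so that the Timp3 window lies in part and the Timp2 window wholly inside the annotated gene. A match is a description of letters and not a measured binding site. Distances are counted from the RefSeq start, and where transcription began in these libraries was not measured.

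The members spanned a wide range of abundance. Per kilobase of exon (RPKM, computed from the scaled counts and the summed exon length of each gene), Timp2 was the most abundant member at a mean of 152.7 over the 10 libraries. Mmp2 followed at 121.2, Mmp14 at 70.2, Mmp3 at 41.2, Timp3 at 31.9, Timp1 at 11.3 and Mmp9 at 3.77 RPKM. Mmp8 at 0.2497 and Mmp13 at 0.248 RPKM were the lowest, with 7 to 23 and 4 to 36 reads per library. Ranges over libraries overlapped between most neighbours in this order, and were apart only between Timp3 and Timp1 and between Mmp9 and Mmp8. Within a library the order was the same in all 10 for each pair of neighbours but for Mmp3 above Timp3, which held in 6, and Mmp8 above Mmp13, which held in 5. The 3 most abundant genes form a known unit, since membrane-bound Mmp14 activates the Mmp2 proenzyme with Timp2 as the bridge between them.

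**Figure D1:**
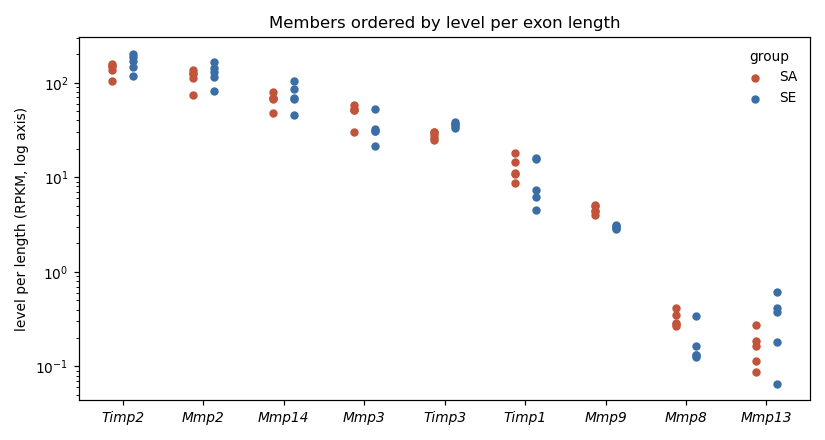
Level of each member per kilobase of exon (RPKM, log axis) in the 5 SA and 5 SE libraries, each point being 1 library and genes ordered by their mean. Timp2, Mmp2 and Mmp14 sit at the top with means of 152.7, 121.2 and 70.2, and Mmp8 and Mmp13 at the bottom with 0.2497 and 0.248.

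Between the groups, Mmp9 was higher in SA skin and passed the test over all genes, and no other member did. The test was the two-sided quasi-likelihood test of edgeR with Benjamini-Hochberg adjustment and a threshold of 0.05. It called 13 of 16909 genes, or 0.0769%, with 0.0591% higher and 0.0177% lower in SA. DESeq2 called 2 members, Mmp9 higher and Timp3 lower, where 0.738% of all genes were called higher and 1.04% lower. The authors' deposited table gave an adjusted p under 0.05 to 1.15% of its genes, these 2 members among them. That table does not name the order of its groups, and its fold changes are read as SA over SE from their signs against the deposited counts. Nothing is read from the members' counts against these shares, because the calls were known when the genes were listed. In 4 members the log2 fold change (SA minus SE) was positive and in 5 negative, with a median of -0.15 over the 9, while the median over all tested genes was -0.01. An unadjusted p under 0.05 was found for 4 members, Mmp9, Timp3, Mmp8 and Mmp3, against 11.1% of all genes.

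Mmp9 encodes gelatinase B, a secreted enzyme of neutrophils, macrophages and wound-edge keratinocytes that cuts denatured collagen and type IV collagen of basement membranes. The gene (ENSMUSG00000017737) lies on chromosome 2, 164940780 to 164955850 on the plus strand of GRCm38, and shares no exonic base with another gene. Its level in SA libraries 1 to 5 was 15.4, 17.9, 17.6, 14.2 and 15.7 CPM. In SE libraries 1 to 5 it was 10.7, 9.93, 10.6, 10.3 and 11.2 CPM. Every SA library thus lay above every SE library, and the 5 SE libraries lay close together whether or not they held hair growth genes. The SA mean was 16.2 ± 1.57 CPM and the SE mean 10.5 ± 0.456 CPM (SD, n = 5 in each group), a 1.54-fold difference. The log2 fold change was 0.62 ± 0.0924 (standard error, as after each fold change here), with a 95% interval of 0.42 to 0.82 and an edgeR adjusted p of 0.0362. The value was 0.65 ± 0.134 without SE libraries 3, 4 and 5, where the call was lost (edgeR adjusted p = 0.105). It was also lost without SA library 1, 2, 3 or 5 and without SE library 3, 4 or 5, each alone, at adjusted p of 0.0713, 0.145, 0.12, 0.111, 0.0975, 0.0806 and 0.0703, while the fold change stayed between 0.58 and 0.66. In the authors' deposited table Mmp9 had a log2 fold change of 0.574 and an adjusted p of 6.7e-07.

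Timp3 showed the only other separation of the groups, in the opposite direction. Timp3 protein binds to the extracellular matrix and inhibits several metalloproteinases and the sheddase encoded by Adam17, which releases tumour necrosis factor. Its level was 213, 245, 202, 229 and 245 CPM in SA libraries 1 to 5. The SE libraries 1 to 5 held 296, 272, 301, 280.5 and 315 CPM. Each SA library lay below each SE library, and the SE libraries with hair growth genes were not apart from the other 2. Means were 227 ± 19.3 and 293 ± 16.9 CPM, and the log2 fold change of -0.37 ± 0.0759 (95% interval -0.53 to -0.20) missed the threshold in edgeR (adjusted p = 0.106). It passed in DESeq2 (adjusted p = 0.000958), in edgeR without SE library 2 (adjusted p = 0.049) and in the authors' deposited table (log2 fold change -0.348, adjusted p = 0.00106). Without SE libraries 3, 4 and 5 it was -0.32 ± 0.0978 (edgeR adjusted p = 0.317). Non-overlapping groups, found in these 2 members, were found in 2.05% of all tested genes, in 1.13% with SA higher and in 0.917% with SA lower. The gene (ENSMUSG00000020044, chromosome 10, 86300372 to 86349506, plus strand) lies within Syn3 on the opposite strand, and 21.3% of its exonic bases are shared with Syn3. Syn3, a synapsin gene, was low at 0.64 to 1.58 CPM, far under Timp3. Whether reads in the shared bases were counted by strand is not given in the sources.

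**Figure D2:**
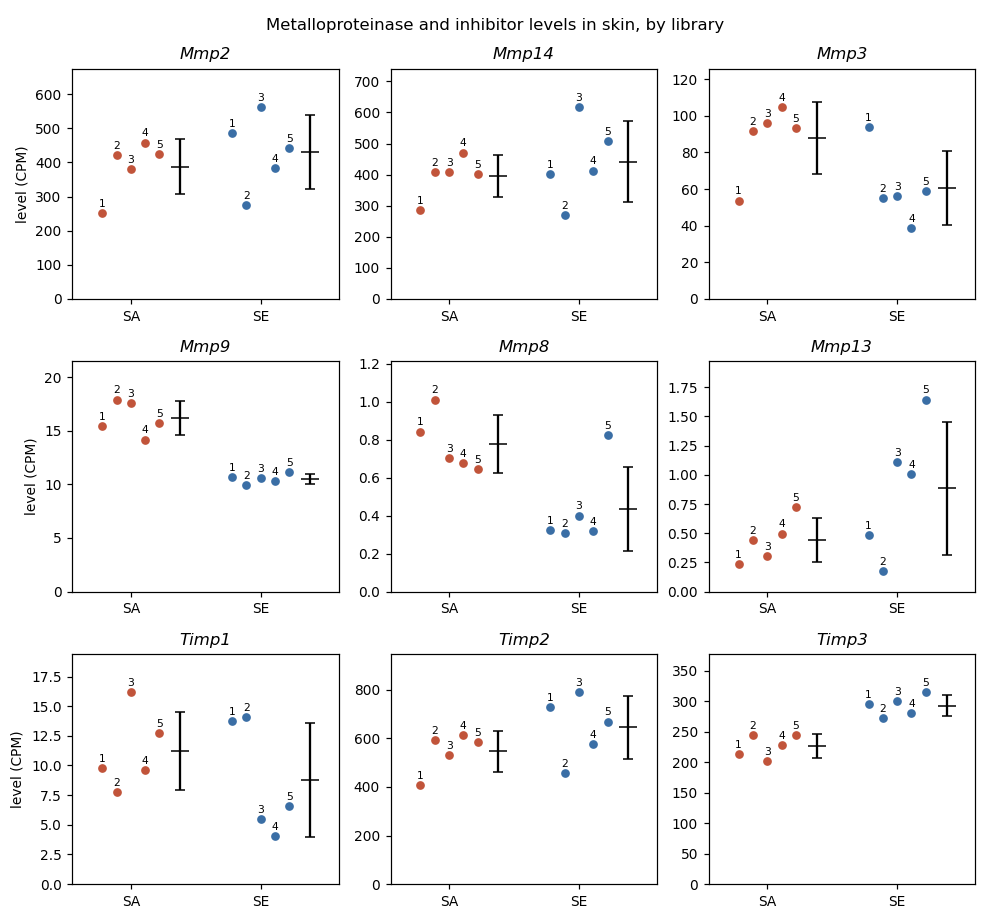
Level in CPM of the 9 members in each library, numbered by replicate, with the mean and SD of each group (n = 5) as the bar at the right, and each axis starting at 0. Mmp9 was above 14 CPM in all SA and below 11.2 CPM in all SE libraries, Timp3 was lower in all SA libraries, and the other 7 members overlapped between groups.

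The secreted stromelysin and collagenases did not pass the test. Mmp3, Mmp8 and Mmp13 are neighbours on chromosome 9, at 7445822 to 7455975, 7558456 to 7568485 and 7272514 to 7283331, all on the plus strand. Mmp3 encodes stromelysin-1, a fibroblast enzyme of broad substrate range that can activate the Mmp9 proenzyme. Its level was 53.7, 91.6, 95.8, 104.8 and 93.1 CPM in SA libraries 1 to 5, and 94, 55.1, 56.3, 38.6 and 59 CPM in SE libraries 1 to 5. SA library 1 and SE library 1 thus lay on the other group's side. The log2 fold change was 0.53 ± 0.222 (edgeR adjusted p = 0.415), and it was 0.75 without SE library 1 and 0.24 ± 0.248 without SE libraries 3, 4 and 5.

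Mmp8, the collagenase stored in neutrophil granules, was counted at 18, 23, 16, 15 and 16 reads in SA libraries 1 to 5. The SE libraries 1 to 5 had 8, 7, 9, 7 and 18 reads. Only SE library 5 reached the SA range, at 0.823 CPM against 0.646 to 1.01 CPM. The log2 fold change was 0.83 ± 0.313 (edgeR adjusted p = 0.369), 1.19 without SE library 5 (adjusted p = 0.243) and 1.29 without SE libraries 3, 4 and 5 (adjusted p = 0.345). The 95% interval of 0.15 to 1.52 lay above 0 before adjustment over all genes.

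Mmp13, the main interstitial collagenase of rodents, went the other way and was the most variable member in SE. Reads were 5, 10, 7, 11 and 18 in SA libraries 1 to 5, and 12, 4, 25, 22 and 36 in SE libraries 1 to 5. The highest 3 values were those of SE libraries 3, 4 and 5, which also held the hair growth genes. The log2 fold change of -0.97 ± 0.499 (edgeR adjusted p = 0.493) turned to 0.41 ± 0.579 without those 3 libraries, and was -0.12 ± 0.634 with the hair growth score as a covariate.

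Among the abundant stromal members, Mmp2, Mmp14 and Timp2 followed one pattern over the libraries. Mmp2 encodes gelatinase A, a constitutive fibroblast enzyme, and its level was 252, 421, 381, 458 and 424 CPM in SA and 486, 274, 563, 384 and 443 CPM in SE libraries 1 to 5. Mmp14 encodes the membrane-bound collagenase MT1-MMP, and it stood at 285, 408, 409, 471 and 403 CPM in SA and 401, 271, 618, 413 and 508 CPM in SE. Timp2, which inhibits most members and helps Mmp14 to activate Mmp2, stood at 406, 591, 532, 612 and 586 CPM in SA and 728, 457.5, 789, 578 and 668 CPM in SE. In all 3 genes SA library 1 and SE library 2 were the lowest of their groups and SE library 3 was the highest of all.

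The groups overlapped for each of them, and none passed the test. Log2 fold changes were -0.15 ± 0.193 for Mmp2, -0.16 ± 0.194 for Mmp14 and -0.24 ± 0.153 for Timp2 (edgeR adjusted p = 0.781, 0.767 and 0.574). Their 95% intervals reached from -0.57 to 0.27, -0.59 to 0.26 and -0.57 to 0.09. These bounds hold for the fit of all 10 libraries only. Without SE libraries 3, 4 and 5 the values were 0.03 ± 0.242, 0.24 ± 0.192 and -0.12 ± 0.192. The ratio of Mmp2 to Timp2 per length varied less than either gene, between 0.718 and 0.866 in SA and between 0.693 and 0.824 in SE. Mmp14 stood at 0.45 to 0.503 of Timp2 in SA and 0.36 to 0.512 in SE. Dermal fibroblast genes also varied: their 9 markers summed to 1991 CPM in SA library 1 and 2376 CPM in SE library 2, and to 2699 to 3162 in the other SA and 1949 to 3648 in the other SE libraries. SE library 4, the lowest of all in fibroblast markers, was not the lowest in these 3 genes, and the part of fibroblast content in their levels was not tested.

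Timp1, a secreted inhibitor that binds the Mmp9 proenzyme and is induced in inflamed tissue, overlapped widely. It stood at 9.79, 7.74, 16.2, 9.62 and 12.8 CPM in SA libraries 1 to 5 and at 13.7, 14.1, 5.48, 4.03 and 6.58 CPM in SE libraries 1 to 5. SE libraries 1 and 2 were above 4 of the 5 SA libraries, and SE libraries 3, 4 and 5 were below all of them. The log2 fold change was 0.35 ± 0.338 (edgeR adjusted p = 0.707) and turned to -0.30 ± 0.238 without SE libraries 3, 4 and 5. The per-length ratio of Mmp9 to Timp1 did not separate the groups: it was 0.273 to 0.58 in SA and 0.177 to 0.642 in SE. Timp1 (chromosome X, 20870166 to 20874735, plus strand) lies inside Syn1 on the opposite strand but shares no exonic base with it.

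**Figure D3:**
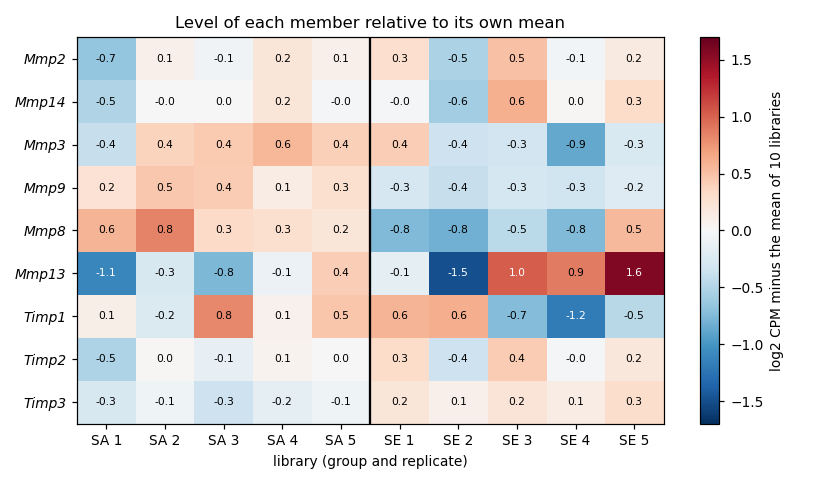
Level of each member in each library as log2 CPM minus the mean of that gene over the 10 libraries (colour and printed value), with SA libraries left of the line and SE libraries right. Mmp9 is positive in all SA and negative in all SE libraries and Timp3 the reverse, while Mmp13 is highest and Timp1 lowest in SE libraries 3, 4 and 5.

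Summed per length, the 3 inhibitors stood at 0.706 to 0.899 of the 6 metalloproteinases in SA and at 0.804 to 1.04 in SE. Of the summed RPKM of all 9, Timp2 made up 32.5% to 37.5% and Mmp2 24.9% to 30.3% over the 10 libraries, and Mmp9 0.846% to 1.46% in SA and 0.541% to 0.858% in SE. The inhibitor ratio overlapped between groups through SA library 1 alone, at 0.899, with SE library 3 lowest of its group at 0.804. SA libraries 2, 3, 4 and 5 stood at 0.763, 0.748, 0.706 and 0.778, below all SE libraries. The difference in this ratio was not tested.

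Of the other 17 metalloproteinase genes, 10 had enough reads to be tested and none was called in edgeR, with 3 at an unadjusted p under 0.05 and 0 called by DESeq2. Their median log2 fold change was 0.05. Mmp11, or stromelysin-3, a fibroblast enzyme of tissue remodelling, had the smallest p and a log2 fold change of -2.47 ± 0.809 (edgeR adjusted p = 0.316). Its level was 16.6, 19.4, 16.7, 30.3 and 33.5 CPM in SA and 11.9, 6.15, 228, 153 and 247 CPM in SE libraries 1 to 5, so that the 3 libraries with hair growth genes alone lay high. Without them its value was 1.37. Membrane-type Mmp15 had 0.24 ± 0.104, and Mmp25, a membrane-type enzyme of leukocytes, 0.56 ± 0.248 (edgeR adjusted p = 0.434 and 0.437). Without SE libraries 3, 4 and 5 these were 0.04 and 0.97.

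Mmp12, the macrophage elastase, had means of 4.14 ± 1.89 (SA) and 4.12 ± 1.17 (SE) CPM and a log2 fold change of 0.01 ± 0.308. Epidermal Mmp28 had 0.06 ± 0.1 and Mmp19 had -0.08 ± 0.218. Without the 3 libraries, Mmp12 had -0.13, Mmp28 0.10 and Mmp19 -0.38. Mmp10, stromelysin-2 of wound-edge keratinocytes, had 2 reads in all SA and 4 in all SE libraries, and Mmp7 and Mmp1a had none in any library. Of 6 other inhibitor genes 4 were tested and 0 called, by edgeR or DESeq2, and none had an unadjusted p under 0.05. Timp4 had -0.10 ± 0.218, and Reck, a membrane-anchored inhibitor, had -0.04 ± 0.184, and without the 3 libraries these were -0.12 and -0.01.

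**Figure D4:**
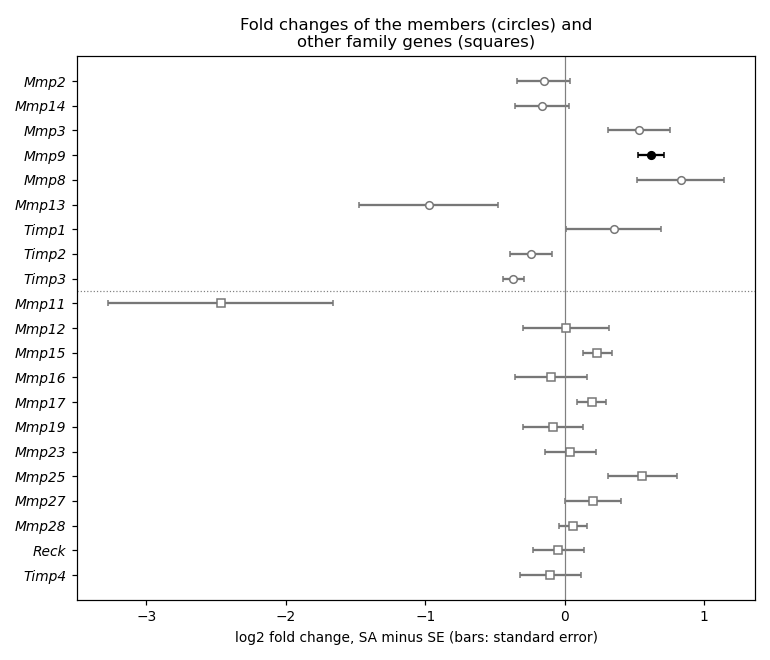
Log2 fold change (SA minus SE) with its standard error for the 9 members (circles, above the dotted line) and for 12 other tested family genes (squares). Mmp9 at 0.62 is the only filled symbol, meaning an adjusted p under 0.05 (edgeR), and Mmp11 at -2.47 has the widest bar.

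Genes that act before or after the members were taken from lists on activators, serpins, ADAM and ADAMTS proteases, matrix substrates, inducing cytokines and transcription factors. With the other family genes these made 136 genes, of which 119 were tested. None was called in edgeR, and 15 (12.6%) had an unadjusted p under 0.05, 5 higher and 10 lower in SA, against 11.1% of all genes. DESeq2 called 3 of them, Il1b higher and Adamts15 and Thbs1 lower, and limma voom called 0. DESeq2 called 1.77% of all genes.

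Adamts15, a protease that cuts the proteoglycan versican, came closest to the threshold. Its level was 17.9, 20.9, 21.4, 18.1 and 19.1 CPM in SA and 36.8, 27, 38.4, 25.7 and 38.7 CPM in SE libraries 1 to 5. All SA libraries lay below all SE libraries. The log2 fold change was -0.77 ± 0.128 (edgeR adjusted p = 0.0694) and -0.71 without SE libraries 3, 4 and 5. It passed in edgeR without SE library 1, 2 or 4 (adjusted p = 0.0309, 0.022 and 0.0213) and with no low-count filter (0.0407). Among the other 17 ADAMTS genes, Adamts9 had -0.59 ± 0.176 and Adamts20 had 0.32 ± 0.105 (edgeR adjusted p = 0.259 and 0.314), which came to -0.18 and 0.18 without SE libraries 3, 4 and 5. Of the 9 membrane ADAM genes, none had an unadjusted p under 0.05, with Adam15 at -0.15, Adam12 at -0.41 and Adam10 at -0.13. Without the 3 libraries Adam15 had -0.19, while Adam12 and Adam10 turned to 0.10 and 0.01.

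Activators and binding partners gave no edgeR call among 21 tested genes, with 6 positive, a median of -0.11 and 4 at an unadjusted p under 0.05. Thbs1, a thrombospondin that binds Mmp2 and Mmp9, had -1.75 ± 0.441 (edgeR adjusted p = 0.169). It stood at 61.7 to 99.3 CPM in SA, at 105.1 and 79.9 CPM in SE libraries 1 and 2 and at 308 to 539 CPM in SE libraries 3, 4 and 5, and its value without those 3 was -0.16. Thbs2 had -0.58 ± 0.188 and the proprotein convertase gene Pcsk6 -0.18 ± 0.0705, and both were at -0.24 without the 3 libraries. Lcn2, whose product binds and stabilises Mmp9, had 0.76 ± 0.351 (edgeR adjusted p = 0.453) with means of 5.76 ± 2.39 (SA) and 3.39 ± 1.9 (SE) CPM, and 0.25 without SE libraries 3, 4 and 5. The urokinase gene Plau (0.20 ± 0.188), its receptor gene Plaur (0.12 ± 0.207), Furin (-0.07 ± 0.0824), which activates Mmp14, and Bsg (0.07 ± 0.0914), an inducer of metalloproteinases, overlapped between groups. All 4 turned direction without SE libraries 3, 4 and 5, to -0.24, -0.10, 0.12 and -0.10.

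Of 7 serpin genes listed for the plasminogen system, 2 were positive, none was called by edgeR or DESeq2 and none had an unadjusted p under 0.05. The median log2 fold change was -0.12, with Serpinb8 at -0.20 and Serpine2 at -0.12, or 0.04 and -0.14 without the 3 libraries.

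Matrix genes on which the enzymes act gave no call among 24, by edgeR or DESeq2, with a median of -0.03 and 2 at an unadjusted p under 0.05. Those 2 were elastin (Eln, -0.59 ± 0.187, edgeR adjusted p = 0.303) and tenascin C (Tnc, -0.59 ± 0.212, edgeR adjusted p = 0.354). Their values without SE libraries 3, 4 and 5 were -0.19 and -0.01. Lama3, a chain of epidermal laminin, had -0.28 ± 0.147, which turned to 0.12 without them.

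Inducing cytokines were positive in 9 of 13 tested genes, with a median of 0.11. Il1b, interleukin-1 beta, had 1.64 ± 0.445 and missed the threshold in edgeR (adjusted p = 0.201). Tnf had 0.55 ± 0.341 and the receptor ligand Tgfa -0.34 ± 0.222 (edgeR adjusted p = 0.563 and 0.578). Without SE libraries 3, 4 and 5, Il1b had 1.23 and Tnf 0.93, and Tgfa turned to 0.39. Of the 13 transcription factor genes (AP-1, ETS and Runx2), 6 were positive and 1 had an unadjusted p under 0.05, with 0 called by edgeR or DESeq2. That gene was Fosb at 1.66 ± 0.696 (edgeR adjusted p = 0.419), followed by Elf3 at 0.98 and Fosl2 at -0.29. The Fosb level ranged from 2.06 to 44.6 CPM in SA and from 2.11 to 6.86 CPM in SE, so the groups overlapped. Without the 3 libraries Fosb had 1.14 and Elf3 2.35, and Fosl2 turned to 0.14.

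Markers of several cell types, some of them known to make Mmp9 or Mmp8, were read beside those genes. Of 14 neutrophil genes 5 were tested, all positive, with a median of 0.83 and no call by edgeR or DESeq2, and 4 had an unadjusted p under 0.05. The summed level of the 14 was 17.9 to 62.4 CPM in SA and 10.9 to 24.6 CPM in SE. S100a8 and S100a9 made the largest parts of this sum, with means of 13.9 and 14.8 CPM in SA and 4.43 and 5.34 CPM in SE. The order of the sum over libraries thus mostly reflects them. SA library 1 was highest at 62.4 and SA library 2 lowest of its group at 17.9, while for Mmp9 SA library 2 was the highest of all. Receptor genes Csf3r, Cxcr2 and Clec4d had log2 fold changes of 0.78 ± 0.236, 0.805 ± 0.316 and 0.83 ± 0.453 (edgeR adjusted p = 0.27, 0.392 and 0.514). Their SA means were 4.80, 1.94 and 1.15 CPM, against 2.80, 1.11 and 0.644 CPM in SE. Without SE libraries 3, 4 and 5 these fold changes were 0.73, 1.27 and 0.54. Genes of the list with too few reads to be tested were near 0, with Retnlg highest at 0.515 (SA) and 0.303 (SE) CPM. Ly6g had 1 and 0 reads summed over SA and SE libraries, and Mpo had 15 and 13. Elane had 10 and 3 and Ngp 14 and 1.

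The 12 macrophage genes gave no call by either tool, with 9 positive, 1 at an unadjusted p under 0.05 and sums of 717.7 to 1303 CPM in SA and 663.4 to 1665 in SE. Of the 6 genes of osteoclast-type giant cells, known for Mmp9, 4 were tested and 1 was positive. Their median was -0.10, or 0.15 without SE libraries 3, 4 and 5. Of these, 0 were called by edgeR or DESeq2, and 1 had an unadjusted p under 0.05. That gene was Acp5, with means of 63.7 ± 5.01 (SA) and 49.1 ± 7.36 (SE) CPM and no overlap between groups (log2 fold change 0.37, or 0.17 without SE libraries 3, 4 and 5). Langerhans and dendritic cell genes were positive in 7 of 8, with Cd207, the langerin gene, at 0.29 ± 0.0735 (edgeR adjusted p = 0.17, DESeq2 adjusted p = 0.0258; 0.29 without the 3 libraries) and sums of 158.8 to 181.4 CPM in SA and 143.3 to 221.6 in SE. The 6 gamma-delta T cell genes summed to 50.5 to 62.7 CPM in SA and 21 to 25.9 CPM in SE, and edgeR called 4 of them higher and DESeq2 5. The 6 stress keratinocyte genes summed to 821.1 to 1205 CPM in SA and 723.7 to 2000 in SE, and 5 had an unadjusted p under 0.05. None was called by edgeR, and DESeq2 called 3 higher. These were Krt6b (2.34), Sprr1b (1.56, with no overlap between groups) and Sprr2d (2.08), named after their values were seen, at 1.65, 2.08 and 1.13 without SE libraries 3, 4 and 5. The median of the 6 was 0.61, and 1.10 without those libraries, while Krt6a, Krt16 and Krt17 were negative with them and positive without. The part of any of these cell types in the Mmp9 difference was not tested.

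Genes closest to Mmp9 over the 10 libraries were found by the root mean square difference of centred log2 CPM among 13883 genes. This difference depends on how much a gene varies as well as on its direction. The nearest 5 were Isg20, an interferon-induced exonuclease, at 0.133, Pygl, glycogen phosphorylase of liver type, at 0.139, Aqp9, an aquaglyceroporin, at 0.139, Rinl at 0.149 and the Notch ligand gene Dll4 at 0.151. The median over all compared genes was 0.371. None of these 5 was called in edgeR, with log2 fold changes of 0.43, 0.52, 0.45, 0.43 and 0.35. Positive values follow from the way the 5 were picked and are no separate result. Of the 6 other members compared, Mmp3 ranked highest, at 0.374 and place 7148, and Timp1 lowest, at 0.586 and place 12968. Timp3, which went the opposite way to Mmp9, stood at 0.508, so these places do not rank shared direction. Mmp8 and Mmp13, under 1 CPM on average, were not ranked.

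**Figure D5:**
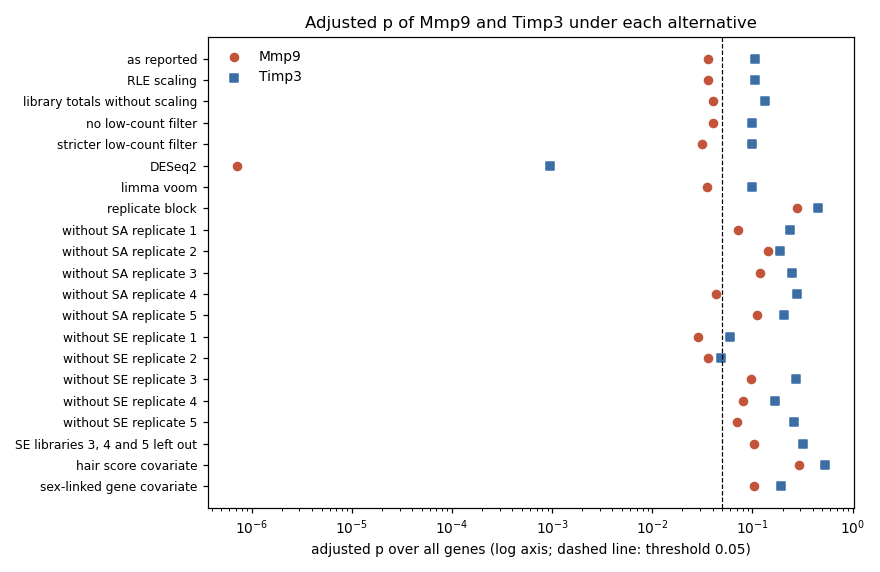
Adjusted p over all genes (log axis) for Mmp9 (circles) and Timp3 (squares) as reported and under 20 alternatives, with the threshold of 0.05 dashed. Mmp9 lies left of the line in 9 of the 20 alternatives and Timp3 in 2, and DESeq2 gives the smallest p for both.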

How the data were processed

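The deposited count table gives raw reads for each Ensembl gene and library. The submitters' processing notes name STAR (2.4.2a), HTSeq (0.6.1p1), SAMtools, DESeq2 and the build GRCm38. The counting mode, strand setting and annotation release were not given in the sources used here. The 5 rows that name no gene, 30.5% to 34.6% of listed reads, stayed out of library sizes and tests. A second deposited table holds the authors' DESeq2 comparison: log2 fold changes, a test score (the statistic, not used), p-values and adjusted p-values, with mean normalized counts as a signal that was not used. The members and lists were chosen with earlier results of these data known.

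Groups and replicate numbers came from titles. Genes kept by filterByExpr (minimum count 10) were scaled by TMM and tested in edgeR 4.0.16 (R 4.3.3) without covariates, prior count 0.125, threshold 0.05 over all genes. DESeq2 1.42.0 and limma 3.58.1 served as alternatives. CPM is TMM-scaled, and RPKM uses union exon lengths of GENCODE M21. The test was checked on simulated counts. Replicate pairs of a group differed by 5.4 to 92.8 in chi-square per degree of freedom, so no pair agreed within sampling noise. Genes named were the members, fixed family genes and the 3 smallest p per pathway list, of which 1 gene is not reported here, and lists were described by counts and medians.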

Additional observations from a re-analysis of the deposited data

Results flagged for a closer look

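In each group of 5 libraries, each member's highest and lowest library was compared with its nearest neighbour, as a share of the group's range. Of 18 groups, 2 had a gap past Dixon's 95% limit of 0.71, where chance gives about 1 in 20. Mmp3 in SA library 1 was at 53.7 CPM with the next SA library at 91.6. Mmp8 in SE library 5 was at 0.823 CPM, or 18 reads, with the next SE library at 0.401.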

How the results depend on the processing

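Over 178 member values under the alternatives, 159 kept direction and side of the threshold, 11 lost the call, 2 gained it and 6 turned direction. Mmp9 stayed positive in 20 of 20 alternatives and was called in 9. Its log2 fold change and adjusted p were 0.65 and 0.105 without SE libraries 3, 4 and 5, 0.60 and 0.292 with the hair growth score as a covariate, and 0.61 and 0.104 with a sex-linked gene covariate. With 1 library left out at a time, the fold change ranged from 0.58 to 0.66 and the adjusted p from 0.0289 to 0.145. Timp3 gave -0.37 in DESeq2 (adjusted p = 0.000958) and -0.40 to -0.33 with 1 library left out.

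Without SE libraries 3, 4 and 5 the direction turned for Mmp13 (0.41), Mmp14 (0.24), Mmp2 (0.0299) and Timp1 (-0.30). With the hair covariate it turned for Mmp14 (0.0616) and Timp1 (-0.21). None of these 4 was called. The cause was not tested.

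Genes called over the whole table numbered 13 as reported, 346 in DESeq2, 41 without SE libraries 3, 4 and 5, 8 with the hair covariate and 7 to 225 with 1 library left out, the most without SE library 1 and 152 without SE library 2. Members called numbered 1 as reported, 2 in DESeq2, 0 without SE libraries 3, 4 and 5, 0 with the hair or the sex-linked covariate and 0 to 2 with 1 library left out. Pathway genes called numbered 0 as reported, 1 with no low-count filter, 3 in DESeq2 and 0 to 3 with 1 library left out. Mmp8 and Mmp13 have no value under the stricter filter.

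Replicate numbers are shared by the groups, but same-numbered libraries did not deviate together (correlations of -0.28 to 0.04). With the replicate block Mmp9 was 0.61 (adjusted p = 0.278), 0 members were called and no SA library correlated best with its own number. Read counts limit Mmp8 and Mmp13.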
